A study of Mus musculus with 7 samples.

Results

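Proteins of the BTB and Kelch superfamily were followed in mouse oocytes with and without *Setd1b*, as 57 transcripts out of the 33437 in the deposited oocyte transcript table. A transcript was taken when its table name was a *Klhl*, *Kbtbd*, *Kctd* or *Btbd* symbol with a number and it lay on the strand of that gene. Of 78 transcripts with such a name, 57 were on the gene's strand and 21 on the opposite strand, and each of the 57 stood for 1 gene. They comprised 28 *Klhl*, 16 *Kctd*, 7 *Btbd* and 6 *Kbtbd* transcripts on 18 chromosomes. The GENCODE M21 annotation holds 111 genes with a symbol of this form, so the set is not the whole of these families. The annotation lists 56 of the 57 as protein-coding, and the remaining one, *Kbtbd8os*, is a noncoding antisense transcript that entered by its symbol only.

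The libraries came from single germinal vesicle (GV) oocytes, fully grown oocytes still arrested in the first meiotic prophase, of C57BL6 females aged 21 days, a background that the study's methods give as C57BL/6OlaHsd. The 4 *Setd1b* cKO libraries came from females labelled *Setd1b* floxed/floxed and *Gdf9*-Cre positive, and the 3 *Setd1b* WT libraries from females labelled floxed/floxed and *Gdf9*-Cre negative, so the floxed allele was shared by both genotypes. The study's methods also count as WT females that carry the Cre with a single conditional allele, and the labels were followed here. *Gdf9*-Cre is driven by an oocyte gene promoter and recombines from early folliculogenesis onwards, so *Setd1b* was present before that time, and each library held 1 oocyte. The comparison asked how the oocyte's transcripts differ when SETD1B, an enzyme that methylates lysine 4 of histone H3, is removed during oocyte growth.

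BTB domains let proteins pair with themselves and dock onto cullin 3, the scaffold of a ubiquitin ligase. In KLHL and KBTBD proteins the BTB domain is joined to Kelch repeats, which form a propeller that holds the protein to be ubiquitinated. KCTD proteins carry a BTB fold akin to the assembly domain of potassium channels, and some of them recruit substrates while others sit on membrane receptors. Ligases built on cullin 3 act in meiotic and mitotic division, in the cytoskeleton and in the response to stress.

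The libraries held 8582493 to 12972366 mapped reads, and 1 read was worth 0.0771 to 0.117 RPM, the deposited unit, in which reads are scaled to the mapped reads of their library. The targeted gene was examined first. The transcript over *Setd1b*, which the table lists under another name, measured 8.31, 16.7, 12.8 and 2.68 RPM in the cKO libraries and 17.7, 16.3 and 8.61 RPM in the WT libraries, and the genotypes overlapped (limma log2 fold change -0.61, SE 0.49, adjusted p = 0.533). This value spans the whole gene and not the floxed segment alone, so it does not check the genotype labels. Of 17 oocyte marker genes tested, 1 passed the threshold, *Mos*, which was lower in cKO oocytes (-1.34, limma adjusted p = 0.00581). Over all tested transcripts 1.95% passed as lower and 60.3% were above 0. Of the 17, 13 were below 0, with a median of -0.35, and the summed level of the oocyte markers was 28207 to 29601 RPM in cKO and 34314 to 35777 RPM in WT libraries, without overlap. Most of that sum came from *Dppa3*, *H1foo*, *Zp3*, *Gdf9* and *Zp2*. Gene by gene, the genotypes did not overlap for 3 of the 17, 2 lower and 1 higher in cKO oocytes, beside 20.3% of all tested transcripts. The summed level of 20 ovarian somatic cell markers was 123 to 295 RPM in cKO and 95.0 to 279 RPM in WT libraries, and of the 8 that could be tested 0 passed with limma, 1 had an unadjusted p under 0.05 and 0 passed with voom. Among the defining somatic markers, *Krt18* had 0 reads in every library and *Amh* and *Foxl2* at most 2 reads in any library, while *Inha* reached 152 reads, *Hsd3b1* 82, *Gja1* 59 and *Fshr* 52 in a cKO library. In a WT library *Inha* reached 56 reads, *Hsd3b1* 9, *Gja1* 30 and *Fshr* 36. *Serpine2*, the most abundant of the somatic list, reached 2635 reads in a WT and 2433 in a cKO library. Reads outside the table's transcripts made up 13.2% to 16.4% of cKO libraries and 9.57% to 9.90% of WT libraries. The part of that difference in the results was not tested.

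In WT oocytes the most abundant members, per kilobase of annotated exon, were *Klhl9*, *Kbtbd8*, *Klhl8*, *Kbtbd7* and *Kbtbd8os*. The length is that of the annotated gene and not of the counted transcript. The *Kbtbd7* transcript overlapped its gene by 0.155 of their union and that of *Kbtbd8os* by 0.690, so their values per kb may hold reads of a longer unit. KLHL9 works with KLHL13 in bringing Aurora B to ubiquitin during mitosis, and its WT level was 97.6 RPM per kb, with 119, 117 and 56.8 in the 3 libraries. KBTBD8, an adaptor for the ribosome biogenesis factors TCOF1 and NOLC1, stood at 56.7 RPM per kb, between 51.3 and 64.4. KLHL8 stood at 43.1 RPM per kb, between 37.7 and 47.3, and did not overlap *Kbtbd8*. *Kbtbd7*, whose product directs the Rac exchange factor TIAM1 to ubiquitin, followed at 26.6 RPM per kb, between 25.0 and 29.4. The lowest *Klhl9* value lay within the range of *Kbtbd8*, so these 2 neighbours in the order overlapped, while *Kbtbd8*, *Klhl8* and *Kbtbd7* each lay apart from the next. Below these came *Kbtbd8os* at 17.0, *Btbd10* at 16.8, *Klhl13* at 13.2 and *Klhl20* at 12.4 RPM per kb, and neighbours in that order overlapped. *Kbtbd11*, in contrast, stood at 0.360 RPM per kb in WT oocytes and 4.22 RPM per kb in cKO oocytes.

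Transcripts that reached 1 RPM in 3 or more libraries entered a limma fit on log2(RPM + 1), and a transcript was past the threshold at a Benjamini-Hochberg adjusted p under 0.05 with a change over 2-fold. This scale understates the change of low transcripts. Of the 57 members, 42 were tested and 15 were too low, 3 of them (*Kctd16*, *Klhl26* and *Klhl31*) with 0 reads in every library. Past the threshold were 3 members, *Kbtbd11*, *Kctd21* and *Klhl41*, all of them higher in cKO oocytes, though *Kctd21* met the filter only through its cKO libraries. Over all 18179 transcripts tested, 5.71% passed, 3.76% higher and 1.95% lower in cKO oocytes, and 3 of 42 members is near that background. The 683 higher and 355 lower calls over all transcripts became 458 and 531 with each library centred on its median transcript, and 428 and 442 with quantile normalisation. Lower in cKO oocytes were 0 members with limma, with 2 at an unadjusted p under 0.05 and 0 with voom. The groups of libraries did not overlap for 7 members, 6 higher and 1 lower in cKO oocytes. Among all tested transcripts 20.3% did not overlap, 13.2% with cKO higher and 7.14% with cKO lower.

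The median log2 fold change was 0.09 over the 42 members and 0.12 over all tested transcripts, and 24 members were above 0 and 18 below, near the 60.3% of all transcripts above 0, while with each library centred on its median transcript the members' median was -0.07 and that of all transcripts -0.03. By family, the median was -0.02 over 20 *Klhl* members, 0.34 over 5 *Kbtbd* members, 0.20 over 11 *Kctd* members and -0.00 over 6 *Btbd* members. Each of the 3 members past the threshold belonged to another family, and 0 of the 6 *Btbd* members passed with limma, had an unadjusted p under 0.05 or passed with voom. Summed over the 57 members, the libraries held 1498 ± 232 RPM (SD, n = 4) in cKO and 1664 ± 289 RPM (SD, n = 3) in WT oocytes, and the ranges overlapped. RPM is a share of a library's reads, so RNA per oocyte was not measured by these values.

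**Figure D1:**
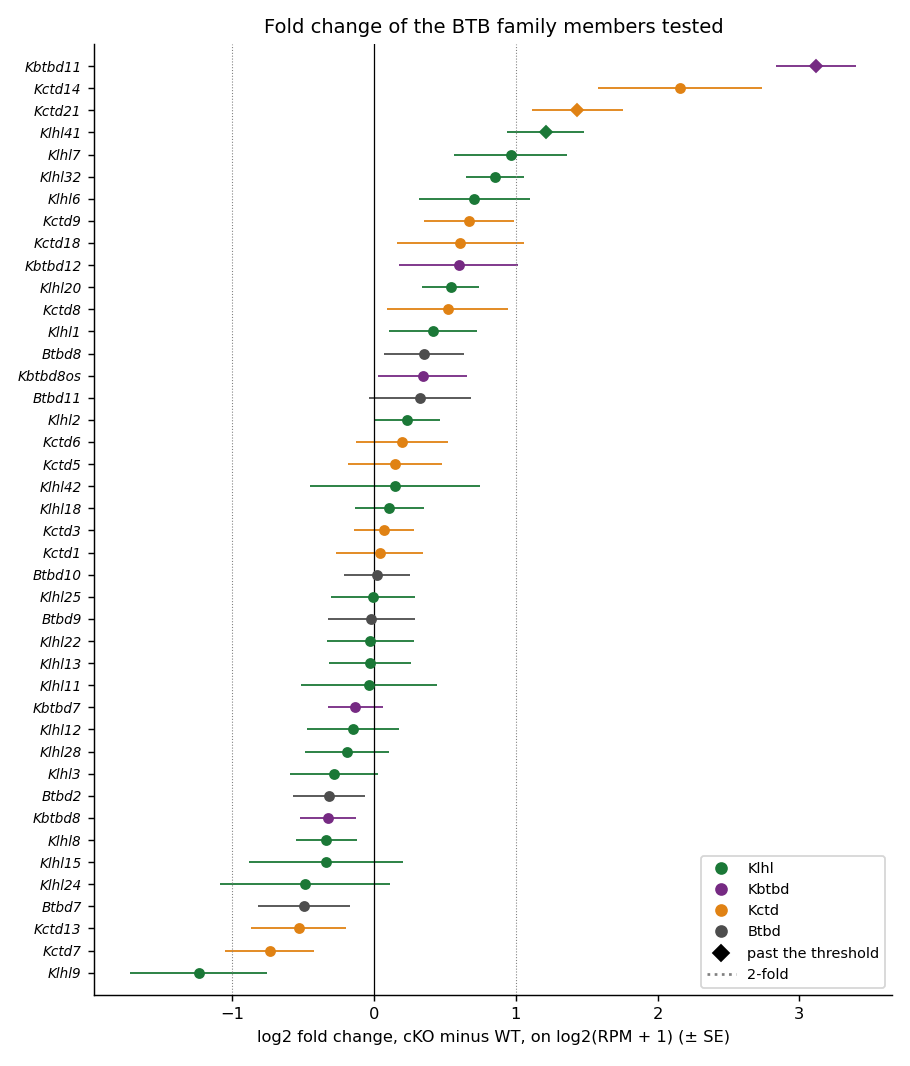
The horizontal axis gives the limma log2 fold change (cKO minus WT) on log2(RPM + 1) for each of the 42 members tested, with bars of 1 SE, coloured by family. Diamonds mark the 3 members past the threshold, all to the right of the dotted 2-fold line, with *Kbtbd11* at 3.12 farthest from 0.

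**Figure D2:**
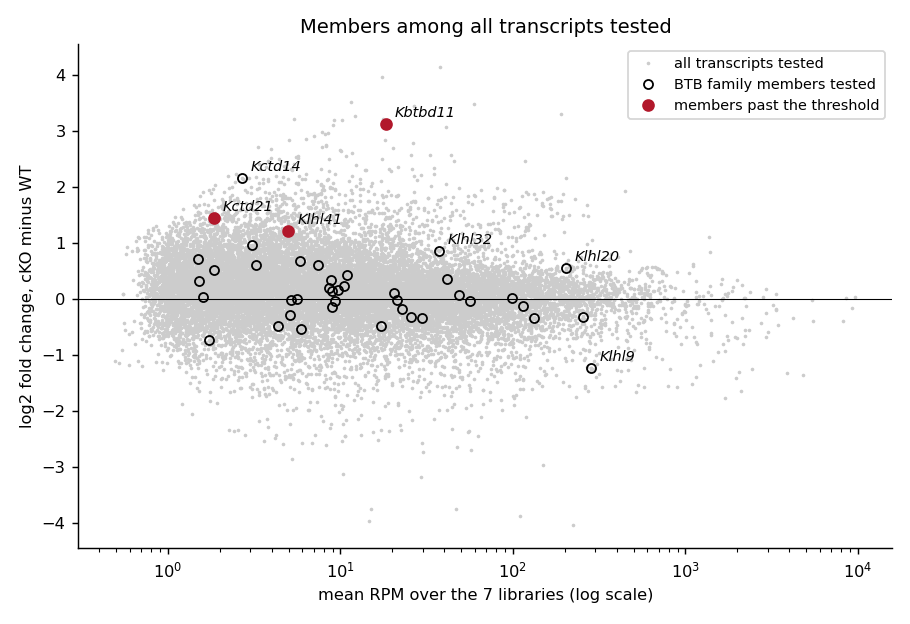
Each grey point is 1 of the 18179 tested transcripts, placed by its mean RPM over the 7 libraries (horizontal, log scale) and its log2 fold change (vertical). The 42 members are circled, most of them within the grey band, and the 3 past the threshold are filled.

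*Kbtbd11* encodes a BTB protein with Kelch repeats. It lies at chr8:15011025-15033330 on the plus strand of GRCm38, and its transcript matched the annotated gene over its whole span. It measured 33.5, 21.7, 27.3 and 38.1 RPM in the 4 cKO oocytes and 2.11, 3.55 and 2.06 RPM in the 3 WT oocytes, which rests on 263 to 338 reads against 22 to 46 reads. Every cKO oocyte was above every WT oocyte, with a wide gap between the genotypes. The mean was 30.1 ± 7.18 RPM (SD, n = 4) in cKO and 2.57 ± 0.846 RPM (SD, n = 3) in WT oocytes, an 11.7-fold ratio (log2 fold change 3.12, SE 0.28, limma adjusted p = 0.000719). It stayed past the threshold in each of 20 other settings, with log2 fold changes from 2.20 to 3.57, and no other transcript of the table overlapped it. Among the 20, the adjusted p alone could not lose the call, since it only drops the fold limit.

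The genes next to *Kbtbd11* did not pass the threshold. *Arhgef10*, whose annotated end is 9.94 kb away, differed by 0.24 on the log2 scale (SE 0.32, limma adjusted p = 0.737). *Cln8*, beyond it, had 0.15 (SE 0.37, limma adjusted p = 0.867). On the other side *Myom2*, which encodes a protein of the sarcomere's M band, had -0.42 (SE 0.27, limma adjusted p = 0.412). *BB014433*, the nearest gene on that side, had no transcript of its name on its strand in the table.

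**Figure D3:**
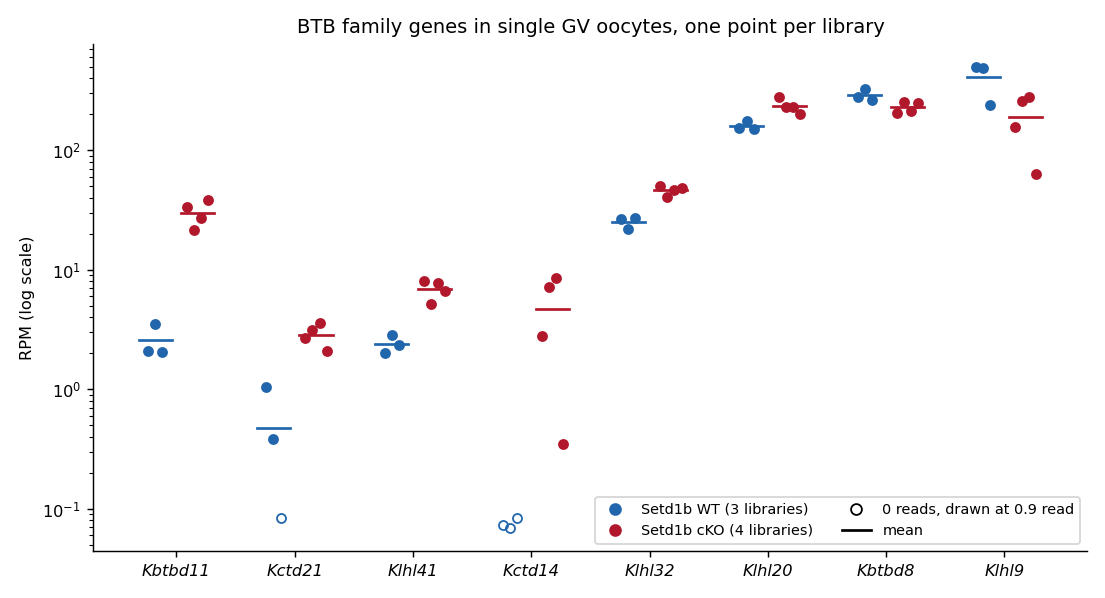
RPM on a log scale for 8 members, one point per library, with WT oocytes in blue, cKO oocytes in red and a line at each group's mean. Open points mark 0 reads. *Kbtbd11* separates the genotypes by the widest gap of the 8 where both have reads, and *Klhl9*, which overlaps between the genotypes, and *Kbtbd8* did not pass the threshold.

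KCTD21 is one of a small group of KCTD proteins that bring the histone deacetylase HDAC1 to cullin 3. Its gene lies at chr7:97332326-97350213 on the plus strand. It met the filter on low values through its cKO libraries, since 1 WT library reached 1 RPM, so its fitted values, like those of *Kctd14* that follow, are a description and no support for a difference. *Kctd21* measured 2.67, 3.13, 3.57 and 2.10 RPM in cKO oocytes and 1.05, 0.385 and 0 RPM in WT oocytes. The genotypes did not overlap, although the WT values rest on 13, 5 and 0 reads. The difference was 1.43 on the log2 scale (SE 0.32), with a limma adjusted p = 0.0258, and the call was lost in 11 of 19 other settings, over which the log2 fold change ran from 0.52 (pseudocount of 5 RPM) to 3.28 (voom) and the adjusted p ran from 0.0188 to 0.107, among them without a filter (0.0988) and with voom on the recovered reads (0.0928). It did not pass without cKO replicate 1, 2 or 3, or without WT replicate 2 or 3, with limma adjusted p from 0.0568 to 0.107. *Usp35*, which encodes a deubiquitinase and lies 0.307 kb away on the other strand, had -0.98 (SE 0.42, limma adjusted p = 0.205), and its genotypes overlapped.

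*Kctd14* lies 101 kb farther along the same chromosome, at chr7:97451319-97459576 on the plus strand. It measured 2.77, 7.17, 8.53 and 0.350 RPM in cKO oocytes and 0 reads in all 3 WT oocytes. Replicate 4, the shallowest cKO library, held 3 reads of it and the other cKO libraries 28 to 98. Against a floor of 3 reads per library, 0.281 RPM in the shallowest WT library, the cKO mean of 4.70 ± 3.80 RPM (SD, n = 4) was at least 16.8-fold higher. *Kctd14* met the filter on low values through its cKO libraries only, so its fitted values are a description and no support for a difference. They did not pass the threshold with all libraries (log2 fold change 2.16, SE 0.58, limma adjusted p = 0.0546) and did in 5 of 16 other settings, among them without cKO replicate 4 (2.73, limma adjusted p = 0.00230), with log2 fold changes from 0.86 to 6.28 over the 16. The replicate block, another of the 5, had the same fold change of 2.73, since only cKO oocytes have a replicate 4. *Inha*, an inhibin subunit gene of granulosa cells, measured 7.03, 11.4, 13.2 and 0.583 RPM in the cKO libraries and 0.810, 4.32 and 0 RPM in the WT libraries. *Hsd3b1*, a steroidogenic enzyme gene, measured 0.396, 5.02, 7.14 and 0 RPM in the cKO libraries and 0.324, 0 and 0.842 RPM in the WT libraries. Like *Kctd14*, both were highest in cKO replicates 2 and 3 and low in replicate 4. Among the cKO libraries *Hsd17b1* and *Gja1* were also highest in replicates 2 and 3, while *Fshr* was highest in replicate 1 (5.15, 3.38, 1.04 and 0 RPM), *Nr5a2* and *Fst* in replicate 4 and *Serpine2* in replicate 2, with replicate 1 second. The summed level of the 20 somatic markers, most of it from *Serpine2*, *Nr5a2* and *Cyp19a1*, overlapped between the genotypes. The part of other cells in the *Kctd14* values was not tested. Between the 2 *Kctd* genes, *Alg8* (0.27) and *Ndufc2* (0.49) overlapped between the genotypes and did not pass the threshold (limma adjusted p = 0.676 and 0.471).

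The other *Kctd* members were closer to 0. *Kctd7*, a gene mutated in a form of progressive myoclonic epilepsy, measured 0.693, 1.15, 2.00 and 0.699 RPM in cKO and 1.70, 2.93 and 2.90 RPM in WT oocytes (log2 fold change -0.74, SE 0.31, limma adjusted p = 0.201). Only cKO replicate 3 reached the WT range. *Kctd9* had 0.67 (SE 0.32, limma adjusted p = 0.253) and *Kctd13* had -0.53 (SE 0.33, limma adjusted p = 0.402). *Kctd6*, which like *Kctd21* encodes an HDAC1 adaptor, stood at 9.32 ± 3.62 RPM (SD, n = 4) in cKO and 7.67 ± 1.57 RPM (SD, n = 3) in WT oocytes (log2 fold change 0.20, limma adjusted p = 0.789). *Kctd11*, the remaining HDAC1 adaptor of that group, was too low to test, with at most 6 reads in any library.

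KLHL41 stabilises nebulin in skeletal muscle and is best known from the sarcomere. Its gene lies at chr2:69670120-69684230 on the plus strand. *Klhl41* measured 8.12, 5.19, 7.75 and 6.64 RPM in cKO oocytes and 2.02, 2.85 and 2.34 RPM in WT oocytes, on 57 to 89 against 25 to 37 reads. The genotypes did not overlap and the ratio of the means was 2.88-fold (log2 fold change 1.21, SE 0.27, limma adjusted p = 0.0268). The call was lost in 9 of 20 other settings, with limma adjusted p between 0.0199 and 0.113 over all 20, among them without cKO replicate 1 or 3 or any 1 of the WT replicates (0.0611 to 0.113). Its log2 fold change ran from 0.68 to 1.52 over the 20, and from 1.13 to 1.32 when a library was left out. *Bbs5* and *Fastkd1*, at 2.55 and 2.59 kb on either side, had 0.23 and 0.46 and did not pass the threshold (limma adjusted p = 0.737 and 0.319).

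**Figure D4:**
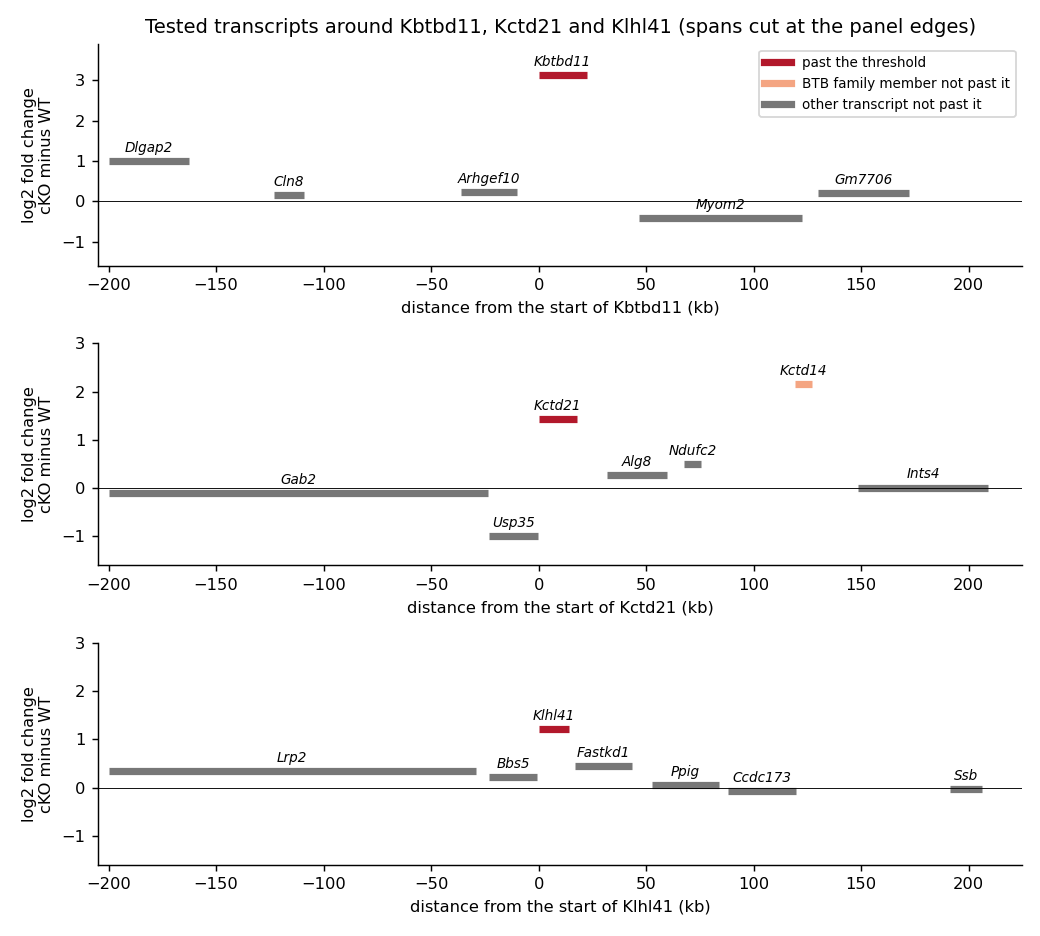
Each bar is a tested transcript named for a gene on its own strand, drawn by its distance in kb from the start of *Kbtbd11* (top), *Kctd21* (middle) or *Klhl41* (bottom), at the height of its log2 fold change. The members past the threshold (dark red) stand above the other transcripts of their panel, except that *Kctd14* (pale red, not past the threshold) stands higher than *Kctd21*.

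*Klhl32*, a gene of chromosome 4, passed the adjusted p but not the fold. It measured 50.4, 40.5, 46.2 and 48.0 RPM in cKO oocytes and 26.6, 22.0 and 27.0 RPM in WT oocytes. The genotypes did not overlap, and the ratio of the means was 1.84-fold (log2 fold change 0.85, SE 0.20, limma adjusted p = 0.0357). Over 20 other settings the limma adjusted p of *Klhl32* ran from 0.0240 to 0.161, so its pass was not kept in all of them. *Klhl20*, an adaptor for the kinase DAPK1 and the nuclear body protein PML, measured 276, 229, 231 and 200 RPM in cKO and 153, 176 and 150 RPM in WT oocytes. Every cKO oocyte was again above every WT oocyte, by a ratio of means of 1.46-fold, without passing the threshold (log2 fold change 0.54, SE 0.20, limma adjusted p = 0.141). *Klhl7*, a gene of inherited retinal degeneration, had 0.96 (SE 0.40, limma adjusted p = 0.188) with genotypes that overlapped. *Klhl1*, a neuronal actin-binding Kelch gene, measured 12.4 ± 4.04 RPM (SD, n = 4) in cKO and 9.02 ± 3.09 RPM (SD, n = 3) in WT oocytes (0.42, limma adjusted p = 0.499).

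Among the abundant members, *Klhl9* was the farthest below 0. It measured 157, 259, 277 and 62.7 RPM in cKO oocytes and 497, 489 and 237 RPM in WT oocytes. cKO replicates 2 and 3 were above WT replicate 3, so the genotypes overlapped, and the difference did not pass the threshold (log2 fold change -1.24, SE 0.48, limma adjusted p = 0.159). Its partner *Klhl13* stood at 56.1 ± 16.7 RPM (SD, n = 4) in cKO and 56.3 ± 13.2 RPM (SD, n = 3) in WT oocytes. *Kbtbd8* measured 205, 252, 213 and 247 RPM in cKO and 276, 328 and 262 RPM in WT oocytes. It was the only tested member with every cKO oocyte below every WT oocyte (log2 fold change -0.33, SE 0.20, limma adjusted p = 0.379). *Kbtbd8os*, which starts beside *Kbtbd8* and runs the other way, measured 9.95 ± 3.80 RPM (SD, n = 4) in cKO and 7.27 ± 0.749 RPM (SD, n = 3) in WT oocytes (0.34, limma adjusted p = 0.591).

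*Klhl8* differed by -0.34 on the log2 scale (SE 0.21, limma adjusted p = 0.409) and *Kbtbd7* -0.13 (SE 0.20, limma adjusted p = 0.766), each with overlapping genotypes. The transcript named *Kbtbd7* covered less than 0.5 of its union with the annotated gene, as did those of *Kbtbd12* and *Kctd18* among the tested members, so these 3 may hold reads of a longer or shorter unit. *Btbd10*, whose product binds Akt, measured 99.6 ± 21.6 RPM (SD, n = 4) in cKO and 97.5 ± 15.4 RPM (SD, n = 3) in WT oocytes (0.02, limma adjusted p = 0.979). *Btbd2* had -0.32 (SE 0.25, limma adjusted p = 0.522). *Btbd8*, which encodes a factor of clathrin-coated vesicles, had 0.35 (SE 0.29, limma adjusted p = 0.535), and a transcript of 464 RPM on the opposite strand overlapped it.

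Spread between oocytes of 1 genotype was wide for some members. *Klhl42*, an adaptor for the microtubule-severing enzyme katanin, measured 5.34, 5.19, 23.5 and 4.43 RPM in cKO and 10.4, 11.6 and 2.15 RPM in WT oocytes. *Klhl15*, an adaptor for a regulatory subunit of phosphatase PP2A, ran from 10.5 to 52.9 RPM in cKO and from 13.3 to 57.7 RPM in WT oocytes. *Klhl24*, an adaptor for keratin 14, ran from 3.73 to 29.7 RPM in cKO and from 9.26 to 24.9 RPM in WT oocytes. For these 3 the genotypes overlapped, and the direction of *Klhl15* and *Klhl24* turned when a library was left out. cKO replicate 4 and WT replicate 3, the shallowest library of each genotype, were together the lowest of their genotypes for 18 of 42 members (42.9%) and for 25.2% of all tested transcripts. RPM is already scaled to depth, and for some other transcripts these libraries were the highest of their genotypes, as for *Rbx1* (863 and 813 RPM). The share of these libraries in the spread was not tested.

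Of the 15 members that were not tested, *Klhl35* had the highest value in any library. It measured 0.693, 5.52, 3.66 and 0.233 RPM in cKO oocytes, on 7, 67, 42 and 2 reads. WT replicate 1 held 3 reads of it and the other WT libraries 0. cKO replicate 4 was no higher than WT replicate 1, so the genotypes overlapped. Like *Kctd14* and *Inha* it was highest in cKO replicates 2 and 3, and the part of other cells in its values was not tested. *Kctd12* had 1 or 2 reads in each cKO library and 0 in each WT library, which is within the 3 reads that a count of 0 allows. Such a limit, like the floor used for *Kctd14*, covers counting error only.

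The machinery that BTB adaptors plug into was followed next. Of 29 genes of cullin 3, its activation by NEDD8 and the COP9 signalosome, 22 were tested, and 1 was higher and 0 lower in cKO oocytes with limma (1 lower at an unadjusted p under 0.05, 0 with voom). Over all transcripts 3.76% were higher and 1.95% lower, so 1 of 22 is near the background. The median log2 fold change of the 22 was 0.04. *Cul3*, the scaffold itself, measured 43.3, 53.4, 56.5 and 38.8 RPM in cKO and 33.4, 46.1 and 28.6 RPM in WT oocytes (0.41, SE 0.24, limma adjusted p = 0.363). *Rbx1*, the RING subunit that binds the ubiquitin-loaded enzyme, stood at 566 ± 226 RPM (SD, n = 4) in cKO and 549 ± 230 RPM (SD, n = 3) in WT oocytes (0.04, limma adjusted p = 0.969). The gene that passed was *Ube2f*, which encodes the NEDD8-conjugating enzyme that serves cullin 5. It measured 205, 192, 160 and 143 RPM in cKO and 92.5, 75.2 and 77.1 RPM in WT oocytes (1.08, SE 0.21, limma adjusted p = 0.0150). The call of *Ube2f* was lost in 3 of 20 other settings, among them without cKO replicate 1 (limma adjusted p = 0.0507) or WT replicate 2 (0.0829). *Ube2m*, whose product serves the cullins 1 to 4, measured 4.85, 3.29, 4.96 and 4.54 RPM in cKO and 6.88, 8.33 and 6.55 RPM in WT oocytes, all lower, without passing the threshold (-0.61, SE 0.26, limma adjusted p = 0.202).

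Of 27 other BTB genes outside the 4 families, 19 were tested, and 2 were higher and 0 lower in cKO oocytes with limma (0 lower at an unadjusted p under 0.05, 0 with voom), beside 3.76% and 1.95% of all transcripts. Their median was 0.09. *Lztr1*, whose product is a cullin 3 adaptor for RAS GTPases, measured 259, 194, 207 and 431 RPM in cKO and 59.6, 65.4 and 116 RPM in WT oocytes (1.74, SE 0.32, limma adjusted p = 0.0130). *Ankfy1*, which encodes an endosomal protein with BTB and FYVE domains, measured 270, 173, 161 and 330 RPM in cKO and 57.7, 65.5 and 85.1 RPM in WT oocytes (1.69, SE 0.29, limma adjusted p = 0.00880). Both separated the genotypes. The call of *Lztr1* was lost in 3 of 20 other settings, among them without WT replicate 1 (limma adjusted p = 0.0642) or WT replicate 2 (0.0730). That of *Ankfy1* was lost in 2 of 20, among them without WT replicate 2 (limma adjusted p = 0.0547). *Spop*, a cullin 3 adaptor without Kelch repeats, stood at 20.4 ± 5.38 RPM (SD, n = 4) in cKO and 22.3 ± 2.78 RPM (SD, n = 3) in WT oocytes (-0.15, limma adjusted p = 0.797). *Keap1* had no transcript of its name on its strand in the table.

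Of 41 partners and substrates of BTB adaptors, 30 were tested, and 1 was higher and 0 lower in cKO oocytes with limma (3 lower at an unadjusted p under 0.05, 0 with voom), which is near the 3.76% and 1.95% of all transcripts. Their median was -0.04. *Hdac1*, the deacetylase that KCTD21 binds, measured 60.6, 60.9, 60.9 and 55.8 RPM in cKO and 22.7, 22.6 and 17.6 RPM in WT oocytes. Oocytes of 1 genotype lay close together, and *Hdac1* passed in each of 20 other settings (1.47, SE 0.20, limma adjusted p = 0.00417). *Tiam1*, the substrate of KBTBD7, measured 48.0, 44.9, 27.9 and 39.7 RPM in cKO and 76.1, 67.5 and 60.2 RPM in WT oocytes, all lower, without passing the threshold (-0.77, SE 0.24, limma adjusted p = 0.0863). The KBTBD8 substrates *Tcof1* (0.18, limma adjusted p = 0.772) and *Nolc1* (0.10, limma adjusted p = 0.856), and the KLHL9 target *Aurkb* (0.19, limma adjusted p = 0.862), had genotypes that overlapped. *Wnk4*, a kinase that KLHL3 directs to ubiquitin, had -1.37 (SE 0.44, limma adjusted p = 0.0969), with 0.435 to 1.86 RPM in cKO and 2.24 to 10.3 RPM in WT oocytes.

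**Figure D5:**
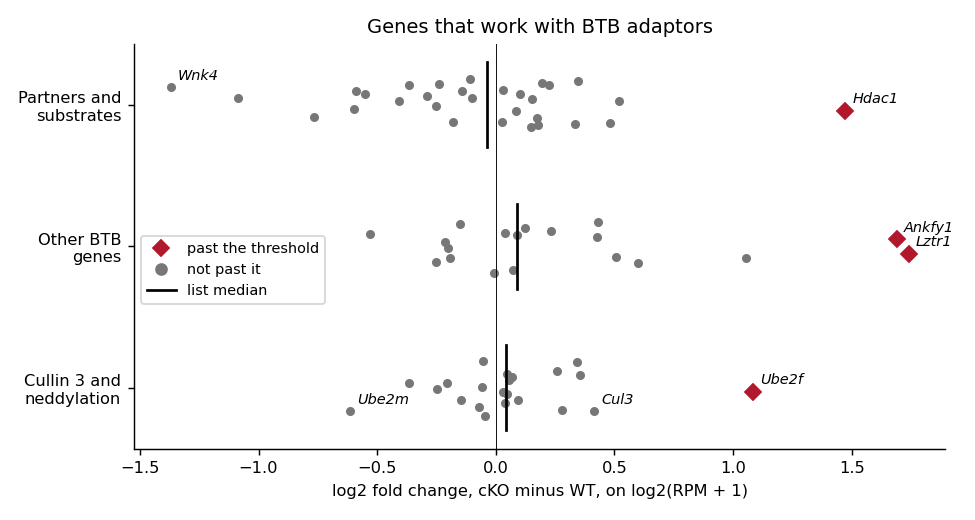
Each point is a tested gene of 3 lists, placed by its log2 fold change (cKO minus WT) on log2(RPM + 1). The vertical bars mark the list medians of 0.04, 0.09 and -0.04, and the 4 diamonds on the right are *Ube2f*, *Lztr1*, *Ankfy1* and *Hdac1*.

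Promoter sequence of the members was read from RefSeq on GRCm38.p6, as 250 bases before and 50 after each start, and 46 of the 57 members had an entry. *Kbtbd11* and *Kctd14* had none. The 3 promoters given here belong to the 2 other members past the threshold and to *Klhl32*, and each start was within 3 bases of the transcript's start in the table. CpG dinucleotides, the substrate of DNA methylation, are in capitals. *Kctd21* (chr7:97332073-97332372, plus strand) has 30 of them and *Klhl32* (chr4:24851075-24851374, minus strand) 27, while *Klhl41* (chr2:69669870-69670169, plus strand) has 6.
Kctd21: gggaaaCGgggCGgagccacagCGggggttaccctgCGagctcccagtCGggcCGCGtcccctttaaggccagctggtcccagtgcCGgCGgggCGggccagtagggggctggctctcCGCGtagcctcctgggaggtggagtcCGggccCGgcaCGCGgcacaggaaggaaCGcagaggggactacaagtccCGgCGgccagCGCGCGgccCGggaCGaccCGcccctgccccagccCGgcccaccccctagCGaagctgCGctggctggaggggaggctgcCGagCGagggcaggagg
Klhl32: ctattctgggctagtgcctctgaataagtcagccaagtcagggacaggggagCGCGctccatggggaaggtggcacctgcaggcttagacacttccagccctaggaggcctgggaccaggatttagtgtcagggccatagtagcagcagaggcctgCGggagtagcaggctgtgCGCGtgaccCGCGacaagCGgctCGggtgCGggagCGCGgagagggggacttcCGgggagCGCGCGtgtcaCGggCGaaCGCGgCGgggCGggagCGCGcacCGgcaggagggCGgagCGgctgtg
Klhl41: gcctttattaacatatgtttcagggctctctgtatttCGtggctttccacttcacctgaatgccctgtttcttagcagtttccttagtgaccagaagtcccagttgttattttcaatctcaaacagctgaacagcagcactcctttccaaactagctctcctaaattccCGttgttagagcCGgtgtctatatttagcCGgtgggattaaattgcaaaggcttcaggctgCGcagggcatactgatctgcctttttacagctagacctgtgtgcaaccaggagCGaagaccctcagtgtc

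The CpG-dense promoters of *Kctd21* and *Klhl32* were like those of most members. The median was 22.5 CpG over the 34 tested members with an entry, from 5 to 54, against 7 over all 32851 promoters of the same length. For 24 of these 34 the transcript in the table began within 500 bases of the listed start. The GC box GGGCGG, searched on both strands, was present in 37 of the 46 promoters and in 35.7% of all promoters. The letters TATAAA, on both strands, were present in 4 of the 46 and in 13.6% of all. *Klhl41* differed from *Kctd21* in these letters, with few CpG, no GC box and a match to the MEF2 consensus, which 3.19% of all promoters and 2 of the 46 hold. That motif was searched after its promoter had been seen, and a match is a description and not a bound site.

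Transcripts that carry a member's name on the opposite strand were a separate set of 21. Of these 11 were tested, 0 passed with limma, 3 had an unadjusted p under 0.05 and 0 passed with voom. Over all 18179 transcripts 5.71% passed and 3948 had an unadjusted p under 0.05. The transcript opposite *Btbd3* had 1.07 (SE 0.31, limma adjusted p = 0.0721) and the one opposite *Klhl8* -1.14 (SE 0.39, limma adjusted p = 0.116). Of the 42 tested members, 14 were overlapped by another transcript on the opposite strand. The library kit does not mark strand, so reads where both strands are annotated could not be assigned to one of them. The overlapping transcript of *Kctd21* stood at 0.154 RPM, and *Kbtbd11* and *Klhl41* had none.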

How the data were processed

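RNA-seq was measured in 7 single GV oocytes, 4 *Setd1b* cKO and 3 *Setd1b* WT, grouped by the sample titles. cDNA was amplified by the authors with a SMARTer kit for low input. Their pipeline used trim galore, then Hisat against GRCm38 with known Ensembl splice sites, dropped hits of mapping quality under 20 and counted in SeqMonk over oocyte transcripts defined earlier, with isoforms merged. The deposited table holds log2 RPM for 33437 transcripts, and a transcript with 0 reads holds the value of 0.9 read. Amplification without molecular identifiers means that counting limits cover counting error only, and whether oocytes came from separate females is not given in the sources used here, so p-values measure the spread between these libraries.

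Values were returned to RPM and to whole reads (100% of values whole at a relative tolerance of 0.0001), which gave library totals of 8582493 to 12972366. One two-sided limma 3.58.1 fit (R 4.3.3, lmFit and eBayes with trend) on log2(RPM + 1) covered the 18179 transcripts that reached 1 RPM in 3 or more libraries, with Benjamini-Hochberg adjustment over all of them. The authors used DESeq2 with an adjusted p under 0.05 and over 2-fold, and these thresholds were kept here. The test on the log scale followed the deposited log2 unit, and a fit to the recovered reads was an alternative. Transcripts were matched to genes by the table's own names on the gene's strand, and annotation came from GENCODE M21.

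The members and gene lists were chosen with earlier results of these data known. Named are *Kbtbd11*, members past the threshold, the 6 farthest from 0 in each direction with a mean of at least 8 RPM, the 5 highest per kb, list genes past the threshold, *Cul3*, *Rbx1*, *Keap1*, *Spop* and the neighbours of *Kbtbd11*. Further genes (*Kctd14*, *Klhl35*, *Klhl42*, *Klhl7*, *Klhl13*, *Btbd10*, the other *Kctd* members, *Ube2m*, *Tiam1*, *Wnk4*, *Tcof1*, *Nolc1*, *Aurkb*, the oocyte and somatic markers, the transcripts opposite *Btbd3* and *Klhl8*, and the neighbours of *Kctd21*, *Kctd14* and *Klhl41*) were named after their values were seen. Alternatives were other pseudocounts (0.1 and 5 RPM and the deposited values), no filter or a mean of at least 4 RPM, 3 scalings, 3 variance models including voom on the recovered reads, a replicate block, the adjusted p alone and leaving out each library. The adjusted p alone only drops the fold limit of the reported fit, so a transcript past the threshold could not fail it. The replicate block repeats the fold changes of leaving out cKO replicate 4.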

Additional observations from a re-analysis of the deposited data

How the results depend on the processing

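*Kbtbd11* and *Hdac1* were past the threshold in each of the 20 alternatives, and members lower in cKO oocytes numbered 0 in all 20 (limma, 2 at an unadjusted p under 0.05 in the reported fit). Of these alternatives, the adjusted p alone could not lose a call. The count of members higher in cKO oocytes was 3 as reported, 1 with a pseudocount of 5 RPM, without a filter or with quantile normalisation, 2 with voom, where *Kctd21* was lost, and 1 to 4 when a library was left out. Its 1 member in those settings was *Kbtbd11*, also without cKO replicate 1 or 3 or WT replicate 2 or 3. All tested transcripts past the threshold numbered 1038 as reported, 553 with a pseudocount of 5 RPM, 303 without a filter and 280 to 1287 when a library was left out. Fewer or more transcripts enter the adjustment when the filter changes, and the cause of the other shifts was not tested. Centring each library on its median transcript moved the median of all genes from 0.12 to -0.03 and that of the members from 0.09 to -0.07. *Klhl24* turned from -0.49 to 0.0014 with the replicate block, and ran from -0.91 (without WT replicate 3) to 0.0014 (without cKO replicate 4) when a library was left out. *Klhl15* turned from -0.34 to 0.0047 with the replicate block and without cKO replicate 4, and ran from -0.88 (without WT replicate 3) to 0.14 (without WT replicate 1).

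Replicate numbers were shared by the genotypes in the labels, but deviations from the group means correlated at 0.192, 0.295 and -0.129 for numbers 1, 2 and 3, and only 1 of cKO replicates 1 to 3 correlated best with the WT replicate of its number. The numbers were therefore not taken to pair the oocytes. With a replicate block 4 members were higher, the fourth being *Kctd14* (log2 fold change 2.73), and 0 were lower. Only cKO oocytes have a replicate 4, so the block takes that library out of the genotype difference. Its fold changes equal those without cKO replicate 4, so these settings are not separate checks. Summing all transcripts of a gene was not run because each member had 1. Depth limits the low members: 3 reads are 0.231 to 0.350 RPM, and *Kctd21* rests on 0 to 13 reads in WT oocytes.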
